A study of Homo sapiens with 8 samples.

Results

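The DEAD and DEAH box RNA helicases are enzymes that use ATP to unwind or remodel RNA, and this account follows their transcripts in C4-2 cells, a human line of castration-resistant prostate cancer, treated with 1 µM DTHIB (also labelled E12, a direct inhibitor of the heat shock transcription factor HSF1) or with the solvent DMSO for 48 h. Poly(A)-selected RNA was sequenced from 4 libraries per group, and all cells were grown in RPMI 1640 medium with fetal bovine serum. Members are the protein-coding genes whose symbol is DDX or DHX followed by a number and at most 1 letter, whose normalized count averaged 10 or more over the 8 libraries. Of 56 matching symbols 54 were protein coding and 50 passed the minimum, 34 DDX and 16 DHX genes, among 17194 genes tested and 58884 in the table. DDX4, DDX25, DDX39B and DDX3Y were below it, and the pseudogenes DDX12P and DDX12B were left out. The members nearest above the minimum were DDX47 and DHX16, with means of 40.1 and 43.1 normalized counts, and the nearest below was DDX25 with 5.33. The labels do not say whether the 4 libraries of a group came from separate cultures, so the p-values measure the spread between these libraries, which may be technical. In bulk RNA, fewer cells that express a gene and less of its RNA per cell cannot be told apart.

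Each of these proteins carries a helicase core of paired RecA-like domains that binds ATP and RNA, and the family takes its name from a short run of residues, Asp-Glu-Ala-Asp or Asp-Glu-Ala-His, in the ATP-binding motif II. DEAD box proteins separate short duplexes locally, whereas most DEAH box proteins move along a strand. In the nucleolus they drive ribosomal RNA folding and the release of small nucleolar RNAs, in the spliceosome they drive its successive rearrangements, and in the cytoplasm they act in translation, messenger RNA export and decay.

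The coding sequence around motif II shows how the members differ in the residues that name them. It was read from GENCODE release 29 transcripts (GRCh38) for 49 members, since DDX17 had no coding transcript that starts with ATG. A match was counted only where both codons just before it have T as their middle base, so a motif in other surroundings would be missed. Matches to Asp-Glu-Ala-Asp were found in 25 of 33 DDX genes, and to Asp-Glu-Ala-His in 8 of 16 DHX genes. DDX39A encodes Asp-Glu-Cys-Asp, and the paralogues DDX21 and DDX50 both encode Asp-Glu-Val-Asp. The symbol does not always follow the motif: DDX11, DDX60 and DDX60L have His as the last residue, as the DHX genes do. The search found no match in DDX41 and DHX32, which does not show that they lack the motif. The sequences below belong to members whose values follow. They run 5′ to 3′ on the coding strand, and the capitals mark the 4 codons of motif II.
DDX5: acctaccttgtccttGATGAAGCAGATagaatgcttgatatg
DDX21: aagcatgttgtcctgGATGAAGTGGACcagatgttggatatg
DDX50: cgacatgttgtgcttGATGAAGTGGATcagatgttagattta
DDX39A: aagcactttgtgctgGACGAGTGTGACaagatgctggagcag
DDX46: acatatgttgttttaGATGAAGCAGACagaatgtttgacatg
DDX3X: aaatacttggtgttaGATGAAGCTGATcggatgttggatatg
DHX15: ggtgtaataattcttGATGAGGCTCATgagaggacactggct
DHX9: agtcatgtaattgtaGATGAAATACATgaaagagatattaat
DHX36: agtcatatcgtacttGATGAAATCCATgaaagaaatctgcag
DHX29: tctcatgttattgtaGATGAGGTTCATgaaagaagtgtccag
DHX30: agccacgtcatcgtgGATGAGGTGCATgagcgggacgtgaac
DDX11: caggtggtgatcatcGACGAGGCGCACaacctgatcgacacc

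Counted reads numbered 29499458 to 30926053 per DMSO library and 27229291 to 29159387 per DTHIB library. Pearson's r over the log2 values of all tested genes, which are not independent replicates, was 0.993 to 0.994 between libraries treated alike and 0.973 to 0.981 otherwise. All 10 luminal prostate markers were detected, led by KLK3, and their summed normalized count was 247787 to 252601 with DMSO and 309799 to 313432 with DTHIB. Of the basal, stromal, endothelial, blood and neuroendocrine markers 7 of 22 passed the minimum. Stromal sums were 984 to 1071 with DMSO and 1226 to 1461 with DTHIB, nearly all from COL1A1, and blood cell sums were 15.03 to 27.01 and 4.99 to 7.98. Basal sums were 35.1 to 52.1 with DMSO and 25.97 to 31.3 with DTHIB, endothelial sums 132 to 170.3 and 145 to 193, and neuroendocrine sums 52.1 to 67.04 and 76.1 to 89.9, with INSM1 at 0. The part of these markers in the results was not tested.

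The question was whether the helicase genes, and the nucleolar, spliceosomal and cytoplasmic groups among them, had other transcript levels with DTHIB than with DMSO. Of the 50 members 27 fell and 10 rose with DTHIB, and 13 did not pass limma's test at an adjusted p of 0.05. Over all genes tested 64.6% passed, 31.0% higher and 33.7% lower, against 20% and 54% of the members. The median log2 fold change was -0.15 over the members and -0.01 over all genes. The members are mostly well expressed: among genes with a mean of at least 500, a limit chosen after the values were seen, 29.3% rose and 46.5% fell, together 75.8%, against 14.6% and 63.4% of the 41 members above it. Changes were mostly small. Apart from DDX47 and DHX58, which have few reads, the called members lay between a log2 fold change of -0.75 for DDX39A and 0.47 for DDX53. Fold changes are on the scale of log2(normalized count + 1), with DTHIB above DMSO positive.

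**Figure D1:**
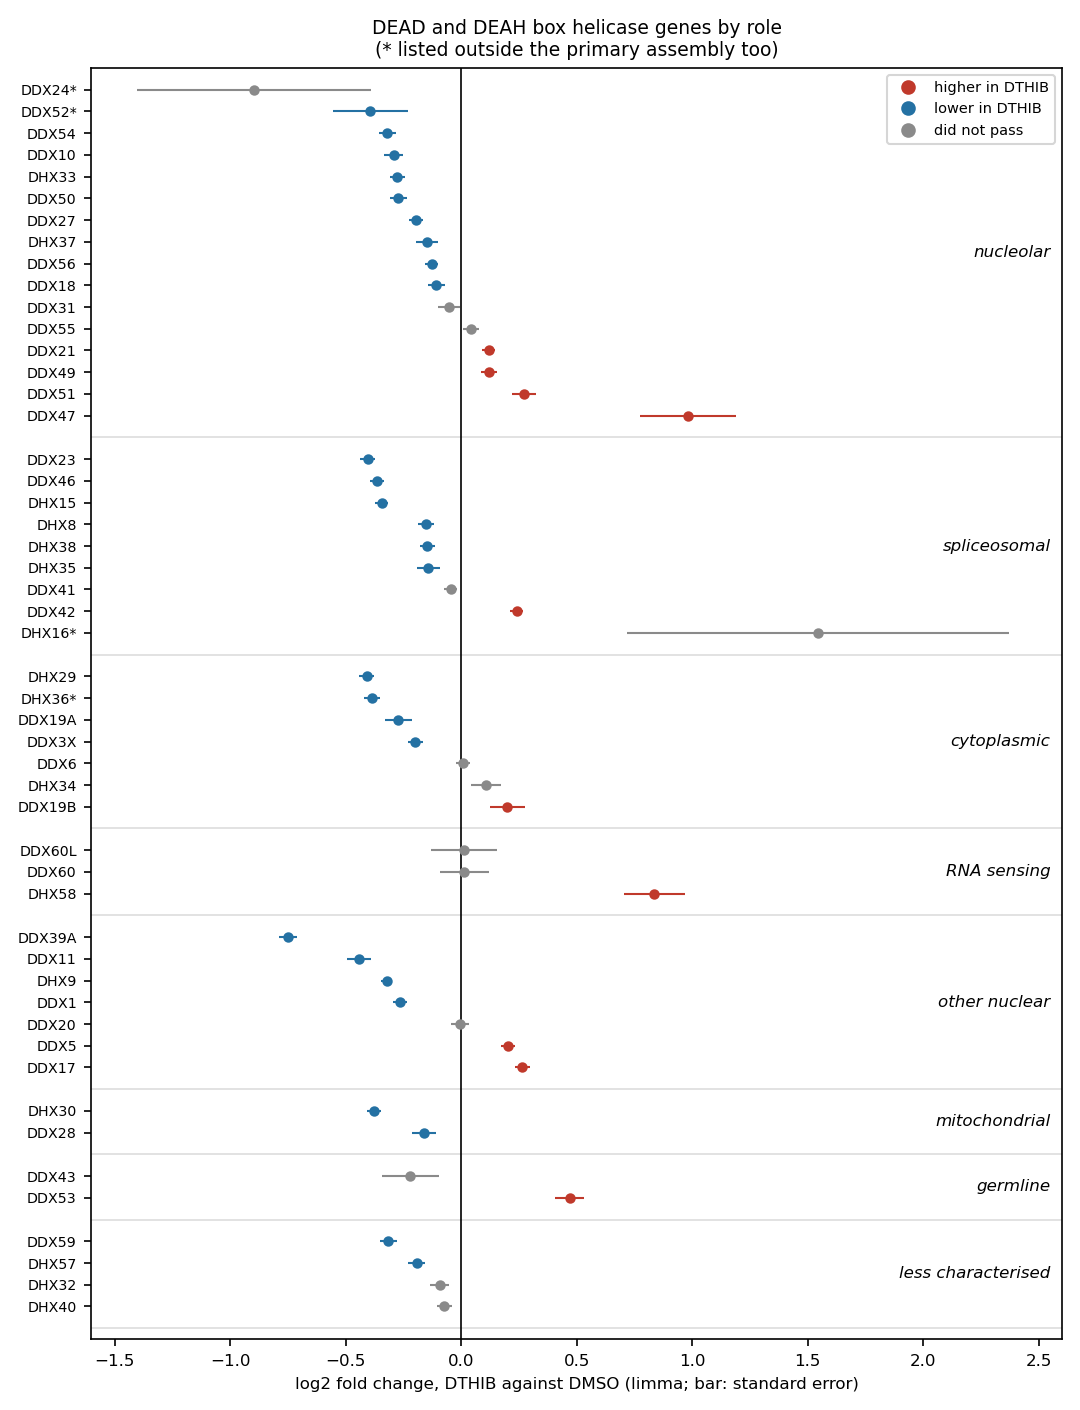
Log2 fold change of each of the 50 members, DTHIB against DMSO, by role; points are limma estimates, bars their standard errors, and colour gives the call at an adjusted p of 0.05. Points left of 0 outnumber those right of it in the nucleolar, spliceosomal and cytoplasmic groups, with 9, 6 and 4 called falls against 4, 1 and 1 called rises. These groups hold 16, 9 and 7 members, and over all genes tested 33.7% fell and 31.0% rose. Asterisks mark members that the annotation also lists outside the primary assembly.

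Groups of libraries did not overlap for 34 members, with 10 wholly above and 24 wholly below in DTHIB. Over all genes the corresponding shares were 27.1% and 30.8%, together 57.9%. Summed over all 50 members, the level was 6238 to 6439 per 1000000 normalized counts with DMSO and 6187 to 6359 with DTHIB, so the sums overlapped. The sums of the spliceosomal group, 1072 to 1097 with DMSO and 984 to 996 with DTHIB, did not overlap. Cytoplasmic helicases likewise summed to 1070 to 1107 with DMSO and 992 to 1011 with DTHIB. The sums of the other nuclear helicases, which hold the abundant DDX5 and DDX17, went the other way. They were 2150 to 2224 with DMSO and 2273 to 2452 with DTHIB. Gene by gene this group was mostly lower: 4 of its 7 members fell, DDX5 and DDX17 rose, and the median was -0.26 on the log2 scale. Nucleolar sums overlapped, at 1513 to 1601 and 1521 to 1567, with the abundant DDX21 rising while most of the group fell.

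Levels of different genes were compared as normalized counts per kilobase of annotated exon in the DMSO libraries. DDX21 stood highest with 3796, then DDX5 with 3309.7, DDX1 with 1942, DDX17 with 1779 and DHX9 with 1638. The lowest were DHX16 with 2.42, DDX47 with 5.34 and DDX60L with 5.43. Of the 5 highest members, 3 rose with DTHIB (DDX21, DDX5 and DDX17) and 2 fell (DDX1 and DHX9).

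Of the 16 nucleolar helicases, which act in the making of ribosomes, 9 fell and 4 rose, and the group's median log2 fold change was -0.14. The shares were 56.25% and 25%, beside 33.7% and 31.0% of all genes. Among genes with a mean of at least 500, 46.5% fell and 29.3% rose. DDX54, DHX33, DDX50, DDX10, DDX27 and DDX56 fell with every DTHIB library below every DMSO library, and DDX51, DDX47, DDX21 and DDX49 rose with every one above. These falls reached a log2 fold change of -0.32 for DDX54, apart from DDX52, whose libraries disagreed. DDX24, DDX55 and DDX31 did not pass. With quantile normalization 5 of the falls passed, without DDX56 (-0.04, adjusted p 0.241), DHX37 (-0.07, 0.180), DDX18 (-0.02, 0.568) and DDX52 (-0.36, 0.0745). DDX55 then passed as a rise (0.13, 0.00227) and DDX21 did not.

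DDX54 (chromosome 12, 113157174 to 113185479), a nucleolar DEAD box protein, was counted at 3871, 3729, 3928 and 3755 in the DMSO libraries and at 3043, 2854, 3261 and 3099.9 in the DTHIB libraries. Every DTHIB library lay below every DMSO library, a fall of 0.32 on the log2 scale (SE 0.0374, limma adjusted p 1.02e-06). DHX33 (chromosome 17, 5440912 to 5469060), which has been linked to transcription of ribosomal RNA genes, had 2199, 2114, 2143 and 2151 normalized counts with DMSO and 1798, 1769, 1819 and 1720.5 with DTHIB. Its groups did not overlap either, and it fell by 0.28 on the log2 scale (SE 0.0324, limma adjusted p 1.04e-06). For DDX10 (chromosome 11, 108665025 to 108940930), a factor of small subunit assembly, the counts were 2161, 1981, 2071 and 2073 with DMSO and 1672, 1565, 1793 and 1739 with DTHIB. Its DTHIB libraries were all lower, by 0.29 on the log2 scale (SE 0.0423, limma adjusted p 1.15e-05).

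DDX21 and DDX50 are paralogues that lie side by side on chromosome 10, DDX50 at 68901278 to 68946847 and DDX21 at 68956128 to 68985073, and their transcripts moved apart. DDX21, which binds both RNA polymerase I transcribed loci and small nucleolar RNAs, had the highest level of the group, with 19209, 18706, 19208 and 19106 normalized counts in the DMSO libraries and 20526, 20188, 21756 and 20323 in the DTHIB libraries. It rose by 0.12 on the log2 scale (SE 0.0287, limma adjusted p 0.00165), with no overlap. DDX50 had 2667, 2756, 2721 and 2638 normalized counts with DMSO and 2379, 2180.4, 2255 and 2118 with DTHIB. It fell by 0.27 on the log2 scale (SE 0.0366, limma adjusted p 5.13e-06), again with no overlap. The ratio of DDX21 to DDX50 counts within a library went from 7.07 ± 0.205 (SD, n = 4) with DMSO to 9.28 ± 0.468 (SD, n = 4) with DTHIB. In a two-sided exact permutation test its p was 0.0286, the smallest that 4 libraries against 4 can give, and 0.0429 after Benjamini-Hochberg adjustment over the 3 paralogue pairs examined. With DDX21 wholly above and DDX50 wholly below in DTHIB, the ratios had to separate, so this p adds nothing to the calls on each gene. Ratios of other paralogues, such as DDX60 and DDX60L, were not tested, and including more pairs could raise the adjusted p. Quantile normalization left DDX21 with a log2 fold change of 0.04 (adjusted p 0.131).

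Of the other nucleolar members, DDX51, a large subunit factor at chromosome 12, 132136594 to 132144335, had 708, 728, 653 and 671 normalized counts with DMSO and 789.8, 904, 829.9 and 814 with DTHIB. It rose by 0.27 on the log2 scale (SE 0.0517, limma adjusted p 0.000194), and its groups did not overlap. DDX49 rose less, by 0.12 (limma adjusted p 0.00626). The remaining falls were 0.20 for DDX27, a large subunit factor, 0.15 for DHX37, which releases the U3 small nucleolar RNA, 0.13 for DDX56 and 0.11 for DDX18, with limma adjusted p from 3.71e-05 to 0.0137. DHX37 and DDX18 overlapped between groups, and without DTHIB replicate 4 DDX18 no longer passed (log2 fold change -0.09, adjusted p 0.0514). DDX55 and DDX31 stood at 0.04 (95% interval -0.03 to 0.11) and -0.05 (95% interval -0.15 to 0.05).

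A few nucleolar members cannot be read as the others can. DDX24 had 1374, 223, 1105 and 226 normalized counts in the DMSO libraries and 716, 197, 207 and 217 in the DTHIB libraries. DMSO replicates 1 and 3 and DTHIB replicate 1 stood high and the other 5 libraries low, whatever the treatment, and the difference of -0.90 on the log2 scale (SE 0.506) did not pass (limma adjusted p 0.130). Without DMSO replicate 2, DMSO replicate 4 or DTHIB replicate 1 it did pass, with log2 fold changes of -1.31, -1.30 and -1.34 and adjusted p of 0.0279, 0.0312 and 0.0260. Without DMSO replicate 1 or DMSO replicate 3, 2 of the high libraries, DDX24 stood at -0.44 (adjusted p 0.436) and -0.54 (0.368). DDX52 had 928, 414, 507 and 498 normalized counts with DMSO and 377, 441, 447 and 439 with DTHIB, and DMSO replicate 1 stood far above the rest. Its call (log2 fold change -0.39, limma adjusted p 0.0434) was lost without that library, at -0.15 and an adjusted p of 0.123, and without any single DTHIB library. Without DTHIB replicates 1, 2, 3 and 4 in turn the adjusted p was 0.117, 0.0549, 0.0528 and 0.0665.

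GENCODE release 29 lists DDX24, DDX52, DHX16 and DHX36 also outside the primary assembly, where a second copy can take or split the reads of a gene. Among genes with a mean of at least 40, the highest of the 4 DMSO libraries was at least 3 times the lowest for 43 of 339 genes with such copies (12.7%) and for 11 of 13323 without (0.0826%). In the DTHIB libraries the shares were 10% and 0.105%. Over the 46 members without such copies 10 rose and 25 fell. Whether the copies set the values of DDX24, DDX52 and DHX16 was not tested.

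DDX47, a factor of small subunit assembly, had few reads for its length: 33.5, 26.8, 17.4 and 30.1 normalized counts in the DMSO libraries and 47.9, 63.6, 58.9 and 42.9 in the DTHIB libraries. The groups did not overlap and the log2 fold change was 0.98 (SE 0.207, limma adjusted p 0.000539). Its exons at chromosome 12, 12813316 to 12829981, overlap those of APOLD1 on the same strand over 36.5% of their bases, so reads there can be left uncounted or assigned to either gene, depending on how they were counted.

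**Figure D2:**
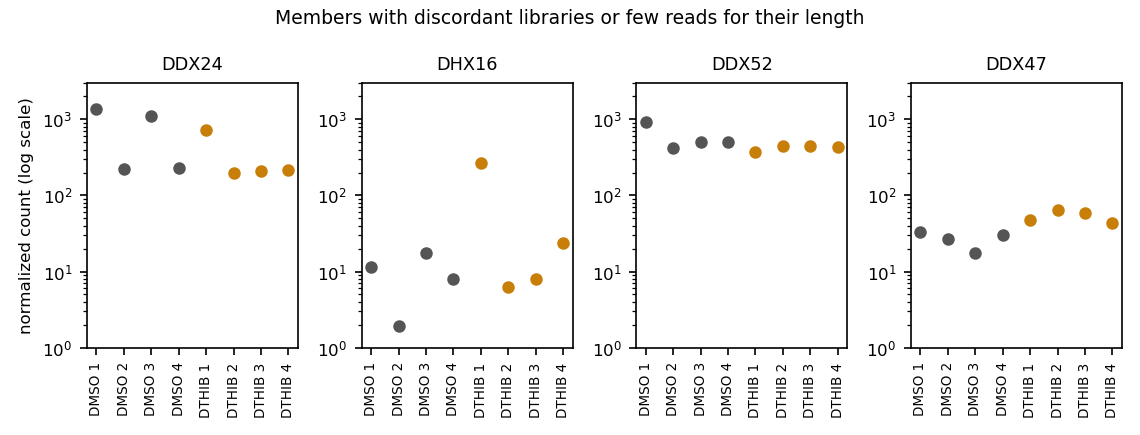
Normalized counts on a log axis in each of the 8 libraries for DDX24, DHX16, DDX52 and DDX47. DDX24 is high in 3 libraries, drawn from both groups, DHX16 in DTHIB replicate 1 and DDX52 in DMSO replicate 1, whereas all 4 DTHIB libraries of DDX47 lie above its DMSO libraries.

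Of the 9 spliceosomal helicases 6 fell, 1 rose and 2 did not pass, with a median log2 fold change of -0.15. In this small group 66.7% fell and 11.1% rose, beside 33.7% and 31.0% of all genes. Among genes with a mean of at least 500, 46.5% fell and 29.3% rose. Members acting from the recognition of the branch site to the disassembly of the spliceosome were among those that fell, DDX46, DDX23, DHX38, DHX8 and DHX15, while DDX42, a partner of the U2 particle, rose. The groups did not overlap for these 7 called members. The falls of DDX46, DDX23 and DHX15 were the larger ones, at 0.34 to 0.41 on the log2 scale, and those of DHX8, DHX38 and DHX35 were 0.14 to 0.15. With quantile normalization these 3 smaller falls no longer passed, which left 3 falls in the group: DHX8 stood at -0.07 (adjusted p 0.0748), DHX38 at -0.06 (0.109) and DHX35 at -0.11 (0.059).

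DDX46 (chromosome 5, 134758771 to 134855133), which acts with the U2 particle at the branch site, had 6031, 5834, 5763 and 5682 normalized counts with DMSO and 4475, 4458, 4659 and 4516 with DTHIB. It fell by 0.36 on the log2 scale (SE 0.0289, limma adjusted p 8.43e-09), every DTHIB library being lower. DDX42 (chromosome 17, 63773603 to 63819317) went the other way, with 5819, 5607, 5554 and 5490.2 normalized counts in the DMSO libraries and 6512, 6699, 6646 and 6694 in the DTHIB libraries. It rose by 0.24 on the log2 scale (SE 0.0278, limma adjusted p 8.49e-07). DDX23 (chromosome 12, 48829764 to 48852842), the U5 helicase that prepares the U4/U6.U5 particle for activation, had 3920.0, 3764, 3943 and 3897 normalized counts with DMSO and 2954, 2768, 3057 and 2946 with DTHIB. Its fall was 0.41 on the log2 scale (SE 0.0335, limma adjusted p 1.34e-08).

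DHX15 (chromosome 4, 24517441 to 24584550), which takes the spent spliceosome apart and also serves ribosome assembly, had the highest level per kilobase of the group. Its normalized counts were 8339, 8254, 8647 and 8400.2 with DMSO and 6563, 6544, 6875 and 6514 with DTHIB, a fall of 0.34 on the log2 scale (SE 0.0282, limma adjusted p 1.20e-08). DHX8, which releases the spliced messenger RNA, fell by 0.15, DHX38, which acts before the second catalytic step, by 0.15, and DHX35 by 0.14, with limma adjusted p of 0.000917, 0.000973 and 0.0173. The DHX35 call was also lost without DTHIB replicate 2, at -0.12 and an adjusted p of 0.0563, and with DESeq2 on recovered reads, at -0.13 and 0.0761. DDX41 lay wholly below in DTHIB, with means of 3246 ± 8.76 normalized counts with DMSO and 3147 ± 74.6 with DTHIB (SD, n = 4), but its log2 fold change of -0.05 (95% interval -0.11 to 0.02) did not pass (limma adjusted p 0.182). DHX16, which acts before the first catalytic step, had 11.5, 1.91, 17.4 and 8.02 normalized counts with DMSO and 268, 6.25, 7.99 and 23.9 with DTHIB. DTHIB replicate 1 alone stood high, and the log2 fold change of 1.54 (SE 0.826) did not pass (limma adjusted p 0.111). DHX16 stood at 0.42 (adjusted p 0.533) without that library and at 1.01 (0.304) without DMSO replicate 2. It passed without DTHIB replicate 2 (2.15, adjusted p 0.0292), without DTHIB replicate 3 (2.05, 0.0454) and in edgeR on recovered reads (2.96, 0.0165).

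The 7 cytoplasmic helicases gave 4 falls, 1 rise and 2 members that did not pass, with a median log2 fold change of -0.20. In this small group 57.1% fell and 14.3% rose, beside 33.7% and 31.0% of all genes. Among genes with a mean of at least 500, 46.5% fell and 29.3% rose. DHX29, which helps the small ribosomal subunit scan structured leaders, DHX36, which unwinds G-quadruplexes, and DDX3X, which helps translation begin on structured messages, all fell with no overlap between groups. DDX6, the helicase of messenger RNA repression and decapping, had means of 8885 ± 196 normalized counts with DMSO and 8934 ± 231 with DTHIB (SD, n = 4). Its log2 fold change was 0.01, with a 95% interval of -0.05 to 0.07 (limma adjusted p 0.824).

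DHX29 (chromosome 5, 55256245 to 55307722) had 2598, 2645, 2781 and 2727 normalized counts with DMSO and 2066, 2008, 2005 and 2018 with DTHIB. It fell by 0.41 on the log2 scale (SE 0.0321, limma adjusted p 7.37e-09). In DHX36 (chromosome 3, 154272546 to 154324497) the counts were 3721, 3539, 3683 and 3598 with DMSO and 2872, 2659.8, 2890.2 and 2704 with DTHIB. Here all 4 DTHIB libraries were lower, by 0.39 on the log2 scale (SE 0.0340, limma adjusted p 3.05e-08), and its libraries agreed although the annotation lists it outside the primary assembly too. DDX3X (chromosome X, 41333284 to 41364472), the highest of the group per kilobase, had 16193, 15093, 16508 and 15582 normalized counts with DMSO and 13615, 13887, 14364 and 13354 with DTHIB. It fell by 0.20 on the log2 scale (SE 0.0324, limma adjusted p 4.42e-05).

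DDX19A and DDX19B, paralogues that lie next to each other on chromosome 16 at 70346829 to 70373383 and 70289663 to 70335283 and serve messenger RNA export at the nuclear pore, moved in opposite directions. DDX19A had 395, 409.6, 441 and 407 normalized counts with DMSO and 334, 362, 328 and 344 with DTHIB, a fall of 0.27 on the log2 scale (SE 0.0598, limma adjusted p 0.000778). For DDX19B they were 183, 202, 199.7 and 186 with DMSO and 231, 230.3, 214 and 210.4 with DTHIB, a rise of 0.20 (SE 0.0759, limma adjusted p 0.0295). Neither pair of groups overlapped. The ratio of DDX19A to DDX19B counts was 2.14 ± 0.0798 with DMSO and 1.55 ± 0.0790 with DTHIB (SD, n = 4; exact permutation p 0.0286, adjusted 0.0429 over 3 pairs). As for DDX21 and DDX50, this p was fixed by the separation of each gene's groups and adds nothing to the calls. Both genes overlap AC012184.2, annotated on the same strand over 23.8% of the exon bases of DDX19A and 15.7% of those of DDX19B, so reads there can be assigned to either gene or left uncounted. The call on DDX19B was lost without DMSO replicate 1 or 4 or DTHIB replicate 1 or 2, with log2 fold changes between 0.175 and 0.184 and adjusted p of 0.0817, 0.0672, 0.0718 and 0.0698. DHX34, of nonsense-mediated decay, stood at 0.11 (95% interval -0.03 to 0.25, limma adjusted p 0.158), and passed without DMSO replicate 1 (0.16, adjusted p 0.0411) or DTHIB replicate 1 (0.16, 0.0488).

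**Figure D3:**
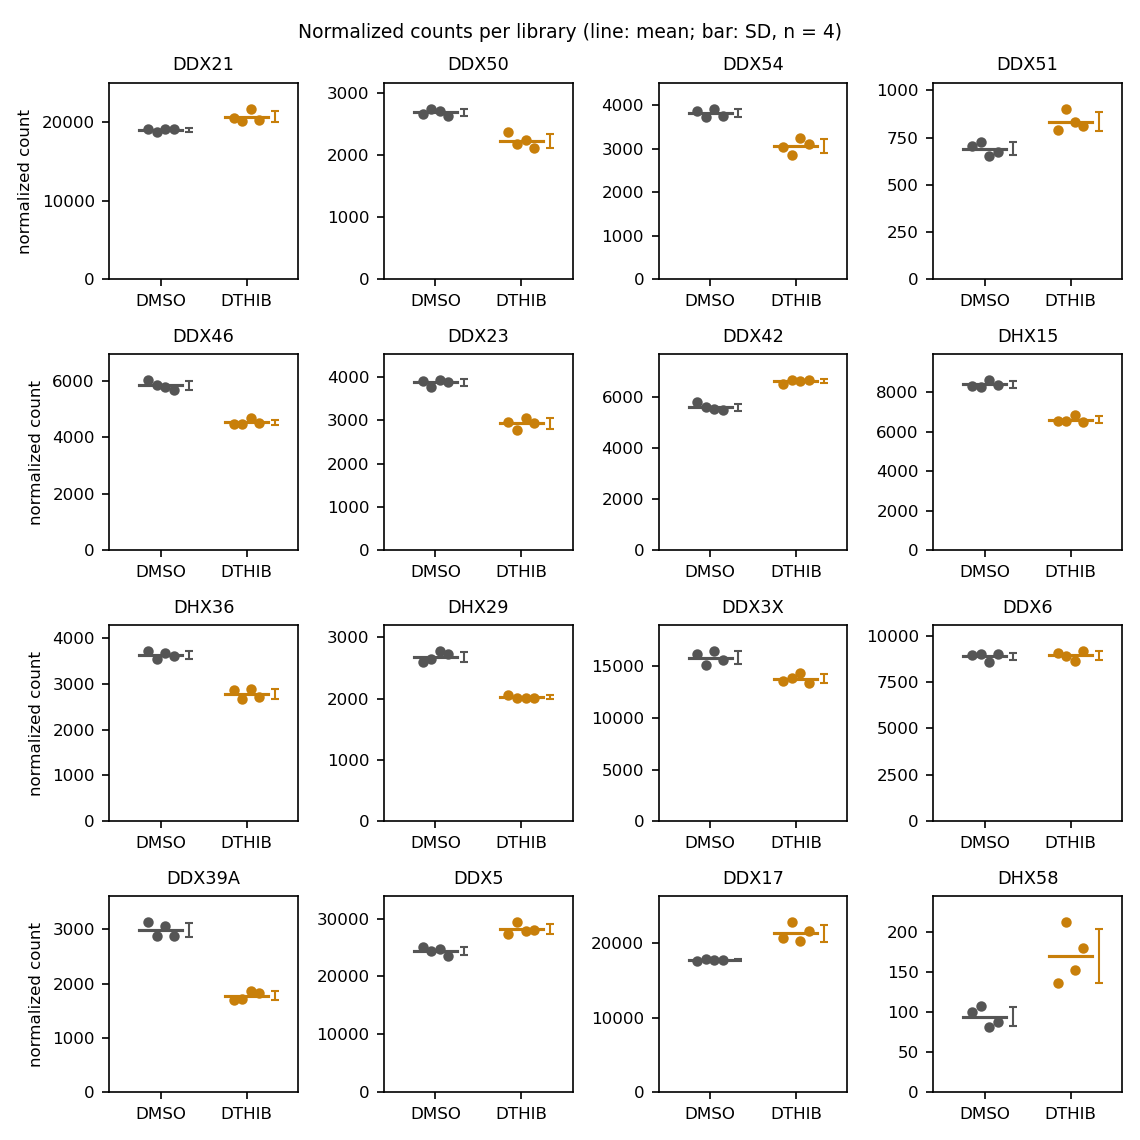
Normalized counts in each library for 16 members, with points for the libraries, a line for the mean and a bar for the SD (n = 4); each axis starts at 0. DDX21, DDX51, DDX42, DDX5, DDX17 and DHX58 lie higher in all 4 DTHIB libraries, DDX6 overlaps, and the other 9 lie lower.

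The other nuclear helicases held the member with the largest called fall. DDX39A (chromosome 19, 14408819 to 14419383), an export and splicing helicase, had 3136, 2882, 3066 and 2874 normalized counts with DMSO and 1698, 1715, 1868 and 1833 with DTHIB. All DTHIB libraries were lower, by 0.75 on the log2 scale (SE 0.0401, limma adjusted p 4.62e-11), which is 0.595 times the DMSO level. Its paralogue DDX39B was below the minimum and is also listed outside the primary assembly, so the pair could not be compared. DHX9 (chromosome 1, 182839369 to 182887751), which unwinds RNA and RNA-DNA hybrids, had 9317, 9188, 9239 and 9247 normalized counts with DMSO and 7522, 7244, 7372 and 7441 with DTHIB. It fell by 0.32 on the log2 scale (SE 0.0254, limma adjusted p 7.46e-09).

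DDX11 (chromosome 12, 31073845 to 31104791), a DNA helicase of sister chromatid cohesion that the symbol places here, had 1837, 1871, 1666 and 1691 normalized counts with DMSO and 1177, 1409, 1318 and 1303 with DTHIB. It fell by 0.44 on the log2 scale (SE 0.0517, limma adjusted p 1.05e-06). The gene has near copies elsewhere, and 17.7% of its 50-base words occur in another gene, so part of its reads may be split. DDX1 (chromosome 2, 15591178 to 15631111), of the transfer RNA ligase complex, had 7581, 7369, 7426 and 7394 normalized counts with DMSO and 6471, 5889.8, 6355 and 6081 with DTHIB. It fell by 0.26 on the log2 scale (SE 0.0313, limma adjusted p 1.16e-06). Groups did not overlap for either gene.

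The paralogues DDX5 (chromosome 17, 64499616 to 64508199) and DDX17 (chromosome 22, 38483440 to 38507660), coregulators of transcription and splicing that act with nuclear receptors, rose together. DDX5 had 25107, 24381, 24771 and 23549 normalized counts with DMSO and 27415, 29408, 27823 and 27967 with DTHIB, a rise of 0.20 on the log2 scale (SE 0.0300, limma adjusted p 1.45e-05). DDX17 had 17695, 17884, 17750.0 and 17777 with DMSO and 20681, 22888, 20371 and 21605 with DTHIB, a rise of 0.27 (SE 0.0330, limma adjusted p 2.08e-06). Their ratio was 1.38 ± 0.0409 with DMSO and 1.32 ± 0.0365 with DTHIB (SD, n = 4), a difference that did not pass (exact permutation p 0.143, adjusted 0.143 over 3 pairs). DDX20, of the SMN complex that assembles spliceosomal particles, had 1049, 1041, 1018 and 1015 normalized counts with DMSO and 1002, 1027, 1073 and 1011 with DTHIB. The groups overlapped and the log2 fold change was 0.00 (95% interval -0.09 to 0.08, limma adjusted p 0.937).

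Among helicases of RNA sensing, DHX58 (chromosome 17, 42101404 to 42112733), which encodes LGP2, a regulator of the sensors RIG-I and MDA5, rose. Its normalized counts were 101, 107, 81.0 and 88.2 with DMSO and 136, 213, 153 and 179.5 with DTHIB, with no overlap and a rise of 0.84 on the log2 scale (SE 0.132, limma adjusted p 3.20e-05). DDX60, an interferon-induced helicase linked to RIG-I signalling, had 155, 168, 127 and 186 normalized counts with DMSO and 157, 163, 156 and 162 with DTHIB. DDX60L, its paralogue on the same stretch of chromosome 4, had 60.3, 78.5, 58.9 and 66.1 with DMSO and 63.6, 55.2, 69.9 and 77.8 with DTHIB. Both overlapped between groups, with 95% intervals of the log2 fold change of -0.21 to 0.24 and -0.29 to 0.32 (limma adjusted p 0.919 and 0.944). The sensors themselves carry other symbols: RIGI fell by 0.47 from 228 ± 18.2 to 165 ± 20.6 normalized counts and IFIH1, which encodes MDA5, by 0.31 from 382 ± 24.1 to 309 ± 19.5 (SD, n = 4; limma adjusted p 0.000413 and 0.000785). Of 24 tested genes of the RNA sensing pathway 15 fell and 4 rose, beside 33.7% and 31.0% of all genes. The rises were 2 without DMSO replicate 2, without DTHIB replicate 2 or with no minimum, and with a library left out the falls were 11 to 15. OAS3, a sensor that activates RNase L, stood at -1.44 (from 1024 ± 60.7 to 377 ± 22.6 normalized counts, limma adjusted p 8.01e-13).

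The 2 mitochondrial helicases both fell. DHX30 (chromosome 3, 47802909 to 47850195), of mitochondrial RNA granules, had 2713, 2689, 2824 and 2713 normalized counts with DMSO and 2120.3, 2104, 2083 and 2106 with DTHIB. It fell by 0.38 on the log2 scale (SE 0.0302, limma adjusted p 8.92e-09) with no overlap. DDX28, of the mitochondrial large ribosomal subunit, had 625, 669, 715 and 662 with DMSO and 627, 566, 597 and 595 with DTHIB, and its groups overlapped. It fell by 0.16 (SE 0.0522, limma adjusted p 0.0119), a call lost without DMSO replicate 3 (-0.13, adjusted p 0.0524). Of its exon bases 22.5% overlap a gene on the other strand, DUS2, and without a stated strand setting reads from the 2 genes cannot be told apart there. Such overlaps also cover over 10% of the exon bases of DHX38 and DHX32.

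DDX53 and DDX43 are cancer-testis genes, known mainly from germ cells and tumours. DDX53 (chromosome X, 22999961 to 23003589) had 264, 282, 273 and 297 normalized counts with DMSO and 406, 368, 379.5 and 393 with DTHIB. It rose by 0.47 on the log2 scale (SE 0.0631, limma adjusted p 5.12e-06), without overlap. DDX43 had 162, 177, 148 and 117 with DMSO and 108, 126, 144 and 137 with DTHIB, and its log2 fold change of -0.22 (95% interval -0.48 to 0.04) did not pass (limma adjusted p 0.134), though it passed without DMSO replicate 4 (-0.34, adjusted p 0.0194). Its exons overlap genes on the other strand, CGAS and OOEP, over 20.2% of their bases. The germline helicases DDX4 and DDX25 were below the minimum.

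Among less characterised members, DDX59 had 1179.9, 1265, 1249 and 1249.5 normalized counts with DMSO and 1016, 981, 992 and 983 with DTHIB, a fall of 0.32 on the log2 scale (SE 0.0381, limma adjusted p 1.48e-06). DHX57 fell by 0.19, from 1347, 1345, 1255 and 1318 to 1123, 1195, 1155 and 1129 normalized counts (SE 0.0387, limma adjusted p 0.000325). Neither overlapped between groups. DHX40 had the highest level per kilobase of these members, with 3677, 3539.8, 3645 and 3685 normalized counts with DMSO and 3604, 3466, 3470.5 and 3300.4 with DTHIB. DHX32 and DHX40 stood at -0.09 and -0.07 with limma adjusted p of 0.0506 and 0.0564, just outside the threshold. DHX32 passed without DTHIB replicate 1 or 3 (-0.11 and -0.12, adjusted p 0.0360 and 0.0170) and DHX40 without DMSO replicate 2 or DTHIB replicate 1 (both -0.09, adjusted p 0.0429 and 0.0209). DHX32 had 1825, 1869, 1953 and 1826 normalized counts with DMSO and 1811, 1679, 1848 and 1671 with DTHIB, and both genes overlapped between groups. Of the 50-base words of DHX40, 14.4% occur in another gene, the pseudogene DHX40P1.

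The proteins that the helicases work with were described from lists of their complexes. Of 38 small subunit processome genes 27 fell and 2 rose (median log2 fold change -0.21). Those with the smallest adjusted p were NOP58, of the small nucleolar particle core, at -0.64, NOL11 at -0.59 and UTP3 at -0.43 (limma adjusted p 1.25e-11, 2.67e-11 and 2.03e-09). Of 30 large subunit assembly factors 17 fell and 5 rose (median -0.11), with GNL2 and BRIX1 at -0.57 and -0.64 and GNL3, which encodes nucleostemin, at 0.36 (limma adjusted p 3.07e-10, 6.89e-10 and 2.46e-09).

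Spliceosomal proteins gave 49 falls and 8 rises among 64 tested, with a median of -0.21 and the U2 particle gene SNRPA1 at -0.91, the Sm-like gene LSM4 at -0.80 and SF3B4 at -0.53 (limma adjusted p 1.71e-12, 2.89e-12 and 7.45e-11). Of 26 genes of decapping and decay, where DDX6 acts, 12 fell and 2 rose (median -0.14), including CNOT9 of the deadenylase complex at -0.42, the decapping enzyme gene DCP2 at -0.48 and PATL1 at -0.40 (limma adjusted p 3.08e-09, 3.58e-09 and 3.53e-07). These counts describe the lists. Over all genes 33.7% fell, and over genes with a mean of at least 500 the share was 46.5%, close to the 46.2% of the decapping and decay list. With quantile normalization 11 large subunit assembly factors fell, and 6 genes of decapping and decay rose.

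Helicases have protein partners that switch them on or off, such as G-patch proteins for the DEAH box members and MIF4G domain proteins for DEAD box members. Of 25 such genes 14 fell and 5 rose (median log2 fold change -0.13). The shares were 56% and 20%, beside 33.7% and 31.0% of all genes. Among genes with a mean of at least 500, 46.5% fell and 29.3% rose. GLE1, which activates the DDX19 proteins at the nuclear pore, fell by 0.46 from 3368 ± 95.5 to 2441 ± 27.5 normalized counts (SD, n = 4; limma adjusted p 7.31e-10). EIF4G3, a scaffold of the translation helicase eIF4A, rose by 0.41, and the G-patch gene RBM10 fell by 0.35 (limma adjusted p 9.97e-10 and 2.04e-08).

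Related helicases without a DDX or DHX symbol gave 9 falls and 4 rises among 19 tested, with a median of -0.12. These shares, 47.4% and 21.1%, stood beside 33.7% and 31.0% of all genes. Among genes with a mean of at least 500, 46.5% fell, close to the share of this list, and 29.3% rose. EIF4A2, a DEAD box translation factor, rose by 0.65 from 9867 ± 339 to 15449 ± 466 normalized counts, and EIF4A1 by 0.91 from 189 ± 23.1 to 356 ± 43.7 (SD, n = 4; limma adjusted p 1.03e-11 and 3.87e-07). EIF4A1 shares exons with the readthrough gene SENP3-EIF4A1, so its count may hold only part of its reads. MTREX, the helicase of the nuclear exosome, fell by 0.41 (limma adjusted p 8.99e-09).

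**Figure D4:**
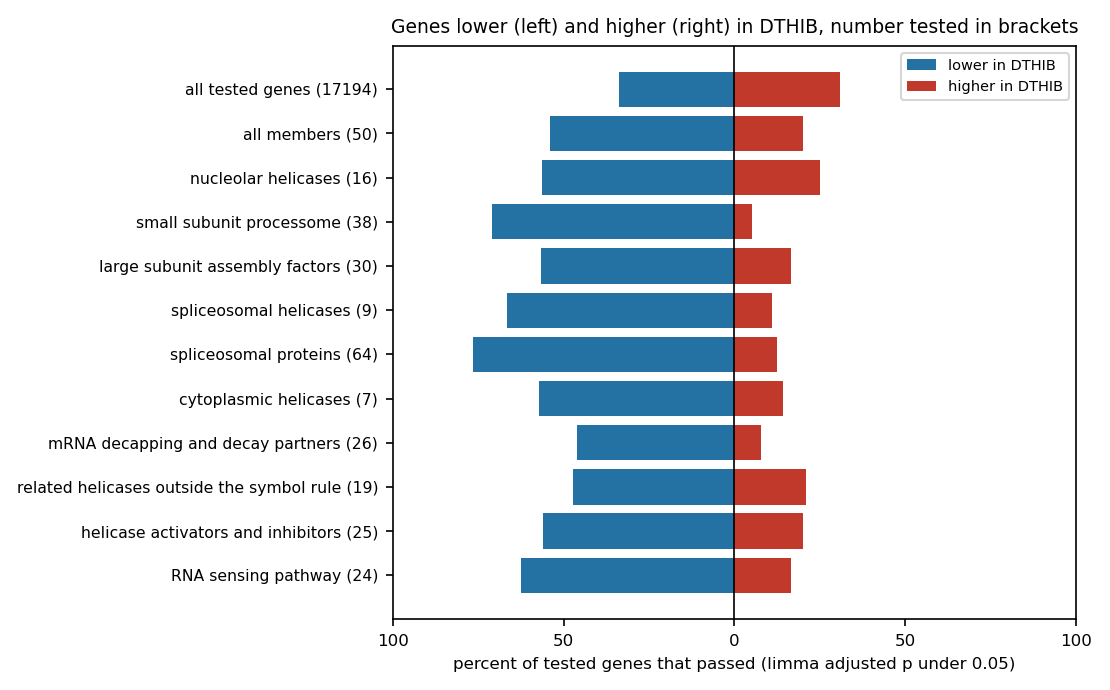
Percent of tested genes that fell (bars to the left) or rose (bars to the right) with DTHIB at a limma adjusted p under 0.05, for all genes, the members and each list, with the number tested in brackets. Over all genes the bars are 33.7% and 31.0%, over the 50 members 54% and 20%.

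Promoters were searched, 250 bases before to 50 after the start in RefSeq's table (GRCh38.p14), for 3 motifs on both strands. Of the members 45 were in the table. Its genes as a whole were not limited to expressed protein-coding ones, as the members were, so the shares below compare unlike sets. The heat shock element, 3 units in turn GAA and TTC (or TTC and GAA) with any 2 bases between units, was in 0 of 45 members and in 0.608% of 27305 genes. With so low a share over all genes, 45 members are too few to show a lack of the element. The E-box CACGTG was in 9 members (20%) and in 8.77% of genes. It stood both in DDX21, which rose, and in DDX54, which fell, shown here with 9 bases to each side and the motif in capitals.
DDX21: cgggtgtccCACGTGgtccccggc
DDX54: agcggaggtCACGTGgtcaccgca
The DDX21 sequence is at chr10:68956607-68956630 on the plus strand and that of DDX54 at chr12:113185525-113185548 on the minus strand, both 5′ to 3′ in the gene's direction. In GENCODE release 29 the first lies in the first exon of a longer DDX21 transcript and the other partly in an exon of RITA1, the neighbour on the other strand. The interferon element, GAAA, any 2 bases and GAAA again or its reverse complement, was in 3 members (6.67%), DDX60, DDX60L and DHX15, and in 4.38% of genes. DHX15 fell, and DDX60 and DDX60L did not pass the test. DDX60 at chr4:168318781-168318855 and DDX60L at chr4:168480518-168480587, both on the minus strand, have 2 matches each before the RefSeq start. In GENCODE release 29 DDX60L runs from 168356735 to 168537786, so its stretch lies within the gene. The matches are in capitals, shown with 15 bases to each side.
DDX60: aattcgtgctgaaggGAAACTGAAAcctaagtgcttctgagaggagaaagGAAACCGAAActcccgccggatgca
DDX60L: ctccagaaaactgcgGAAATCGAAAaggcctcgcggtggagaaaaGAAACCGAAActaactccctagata
A match describes these letters only, and no binding was measured.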

How the data were processed

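RNA-seq of 8 C4-2 libraries, 4 per treatment in the labels, was compared. The submitters' processing notes name the build GRCh38 and HISAT2 2.1.0, featureCounts 1.6.3, DESeq2 2.11.40.2, Trimmomatic 0.36.5 and StringTie 1.3.4. Not given in the sources used here are their order and settings, the annotation release, the strand setting and the handling of multi-mapping reads. Per the file headers, the signal that the authors deposited is a DESeq2-normalized count per gene and library. The authors' deposited table of DESeq2 results holds per gene a mean signal, a Wald score, p-values and a log2 fold change; in it 49 members have an adjusted p, 9 higher and 25 lower at 0.05, and all 49 signs match those reported here.

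Values were tested as log2(normalized count + 1) with limma 3.58.1 (expression trend, R 4.3.3), two-sided and without covariates, on 17194 genes with a mean of at least 10; p-values were Benjamini-Hochberg adjusted over all of them, and "rose" or "fell" means an adjusted p under 0.05. This scale understates the change of low genes. Intervals of fold changes are limma's 95% intervals, and paralogue ratios were compared by exact permutation of the libraries. Reads were recovered from the steps of the values (100% whole within 0.01), though the step of 3 columns lies close to a round value and was not independently checked. On these reads edgeR 4.0.16 called 11130 genes and DESeq2 1.42.0 called 10283. Libraries held 27229291 to 30926053 reads, and genes near the minimum carry the largest counting error. The chi-square statistic per gene was 2.39 to 5.21 between replicates and at least 51.7 between groups, so no 2 libraries were counted as 1. The tests were tried on simulated data.

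Members and lists were chosen with earlier results of these data known. In each role the 4 members with the smallest adjusted p, the highest per kilobase and the 3 members with the largest adjusted p of all are given by library, and in each other list up to 3 genes with the smallest adjusted p; RIGI, IFIH1 and the remaining per-library values were chosen after values were seen. Positions, exon overlaps and shared 50-base words are from GENCODE release 29. Alternatives were pseudocounts of 0.5 and 5, no minimum or 50, TMM, quantile normalization, edgeR, DESeq2, the replicate number as a block and each library left out; leaving out genes with copies outside the primary assembly was added after seeing the data.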

Additional observations from a re-analysis of the deposited data

Results flagged for a closer look

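In each of 100 groups of 4 libraries, the 50 members in both treatments, the library farthest from the rest was compared with Dixon's limit, which chance passes in about 1 of 20 groups; 5 passed. DDX24 in DTHIB replicate 1 had 716 normalized counts, against 197 to 217 in the other 3 DTHIB libraries. DHX16 in the same library had 268, against 6.25 to 23.9. DDX52 in the same library was low, at 377 against 439 to 447. These 3 genes are listed outside the primary assembly too, and whether that sets the values was not tested. DDX6 in DMSO replicate 3 had 8593 normalized counts, against 8945 to 9004, and DHX15 in DTHIB replicate 3 had 6875, against 6514 to 6563.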

How the results depend on the processing

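Across all alternatives and left-out libraries, 9 to 11 members rose and 20 to 29 fell; quantile normalization gave 9 and 20, with a member median of -0.08 and an all-gene median of 0.02. No called member changed sign. Counts of calls that moved over 1.5 times included the cytoplasmic rises, 0 with DESeq2 and with quantile normalization (0 to 1 with a library left out), the nucleolar falls, 5 with quantile normalization, and the spliceosomal falls, 3 with quantile normalization. Others were the large subunit factor falls (11) and the decapping and decay rises (6) with quantile normalization, and the RNA sensing pathway rises, 2 with no minimum (2 to 4 with a library left out). Of the small groups, the mitochondrial falls were 1 with quantile normalization or without DMSO replicate 3 (DDX28 lost), the less characterised falls 4 with a minimum of 50 or without DTHIB replicate 1 (DHX32 and DHX40 gained), and the germline falls 1 with quantile normalization or without DMSO replicate 4 (DDX43 gained). The spliceosomal rises were 2 with edgeR (1 to 2 with a library left out). The nucleolar and spliceosomal falls were 7 to 10 and 5 to 6 with a library left out. Replicate numbers do not pair the libraries (correlations of same-numbered deviations -0.07 to 0.01); with the replicate block 11 members rose and 29 fell, the spliceosomal rises were 2, and DDX24 and DHX16 passed (adjusted p 0.00729 and 0.0298). DDX52 and DDX19B were also lost with DESeq2 (adjusted p 0.142 and 0.0624) and quantile normalization (0.0745 and 0.0976). With quantile normalization DDX27, DHX57 and DDX49 kept their calls at -0.11, -0.12 and 0.21. Members that changed sign, none of them called, were under quantile normalization DDX20 (0.0592), DDX31 (0.0144), DDX41 (0.0346), DHX40 (0.0127), DDX60 (-0.0672) and DDX60L (-0.0828). DDX20 also stood at 0.0109 with DESeq2, 0.01 with TMM and 0.0104 with edgeR. With a library left out, DDX20 ranged from -0.0243 to 0.00828, DDX6 from -0.0082 to 0.0241, DDX60 from -0.0891 to 0.0929 and DDX60L from -0.0645 to 0.0982. In all, 26 values lost a call, 21 gained one and 20 changed sign. The other 826 kept their sign and their status, whether called or not. The cause of these changes was not tested. Of the members, DDX47, DHX16 and DDX60L have the fewest reads, which limits their precision.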
